A study of Mus musculus with 6 samples.

Results

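The genes described here are 10 receptor genes of myeloid cells from the PIR and LILR, PILR, CD300 and SIRP families: Pirb, Lilrb4a, Lilr4b, Pilra, Pilrb1, Cd300a, Cd300lb, Cd300ld, Cd300lf and Sirpa. They were taken by gene name from a table of 54532 genes, and all 10 were found once. RNA was sequenced from CD11b-positive cells of the bone marrow of tibias, isolated by positive selection from mice 12 weeks old. The groups were 3 libraries titled Tshr-/- and 3 titled Tshr+/+ (wild type), numbered 1 to 3 in each. Tshr is the gene of the thyrotropin receptor; another label calls the mutants a knockdown, and the allele, the strain and the sex are not stated. A label names osteoclast differentiation as treatment in both groups, with no culture step or time. Nothing beyond the numbered titles says that each library is 1 mouse, so the p-values measure the spread between these libraries.

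Receptors of these families sit in the membrane of neutrophils, monocytes and macrophages and set the threshold at which the cells respond. An inhibitory member carries an immunoreceptor tyrosine-based inhibitory motif (ITIM) in its cytoplasmic tail, and the phosphorylated tyrosine recruits the phosphatases SHP-1 and SHP-2, the products of Ptpn6 and Ptpn11. An activating member has a short tail and signals through an adaptor with an activating motif, DAP12 (Tyrobp) or the Fc receptor gamma chain (Fcer1g). Inhibitory and activating members often arose by duplication and lie side by side in the genome, hence the name paired receptors. The same adaptors give the costimulatory signal of osteoclast formation, and PIR-B (Pirb) and CLM-1 (Cd300lf) are known in the mouse as restraints on it.

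The coding sequences separated the 10 genes by the presence of an ITIM in the tail. In the principal GENCODE transcript, 6 genes held at least 1 ITIM in the tail, read as a serine, isoleucine, valine or leucine, any residue, tyrosine, any pair of residues, and isoleucine, valine or leucine. These were Pirb and Sirpa with 3 matches each, Lilrb4a, Cd300a and Cd300lf with 2 each, and Pilra with 1. Lilr4b, Pilrb1, Cd300lb and Cd300ld held 0 in tails of 42, 8, 33 and 24 residues. The most hydrophobic window of 19 residues was taken as the membrane span, and matches outside the tail were not counted. Inside that span Pilrb1 and Cd300lb each held 1 lysine or arginine, and Lilr4b and Cd300ld held 0. The lack of an ITIM does not by itself show that a receptor is activating. The 18 bases that encode 1 ITIM of each inhibitory gene are shown from 5′ to 3′ on the coding strand (GRCm38), with the tyrosine codon in capitals, because this motif is what divides the paired receptors.
Pirb: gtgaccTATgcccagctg
Lilrb4a: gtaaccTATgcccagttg
Pilra: atcgtgTATgcttccatc
Cd300a: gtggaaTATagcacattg
Cd300lf: gtttcaTATgccgctctg
Sirpa: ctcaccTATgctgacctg
The Pirb motif lies on chromosome 7 from 3712786 to 3712803 on the minus strand, that of Lilrb4a on chromosome 10 from 51496194 to 51496211 on the plus strand, and that of Pilra on chromosome 5 from 137823571 to 137823588 on the minus strand. That of Cd300a lies on chromosome 11 from 114899846 to 114899863 on the plus strand, that of Cd300lf on chromosome 11 from 115117112 to 115117129 on the minus strand, and that of Sirpa on chromosome 2 from 129630077 to 129630094 on the plus strand. Each of these lies within 1 coding exon.

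The libraries held between 14698126 and 17976477 fragments, computed as whole numbers from the deposited FPKM (fragments per kilobase of gene, scaled by the authors for library depth). Tshr itself stood at 0.414, 0.297 and 0.00825 FPKM in the libraries labelled Tshr-/- 1 to 3, and at 0.537, 0.552 and 0.405 FPKM in Tshr+/+ 1 to 3. Transcript of the targeted gene was thus present in the libraries labelled Tshr-/- 1 and 2, the mutated part of the gene is not stated, and directions below are those of the labels. Itgam, the gene of CD11b, held 87.4 to 134 FPKM in Tshr-/- and 111 to 125 FPKM in Tshr+/+. Of 12 neutrophil marker genes all 12 passed the filter on low values, with a summed level of 94301 to 144734 FPKM in Tshr-/- and 116544 to 140598 FPKM in Tshr+/+. The 7 monocyte markers summed to 553 to 679 FPKM in Tshr-/- and 554 to 598 FPKM in Tshr+/+, and the 8 markers of resident macrophages to 141 to 201 FPKM in Tshr-/- and 171 to 204 FPKM in Tshr+/+. The 7 markers of B and plasma cells, mostly immunoglobulin genes, summed to 260 to 456 FPKM in Tshr-/- and 393 to 693 FPKM in Tshr+/+.

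The receptor genes were abundant transcripts of these cells, and their levels spanned a wide order. Over the 6 libraries Lilr4b led at 555 ± 199 FPKM, followed by Lilrb4a at 215 ± 66.9 FPKM (SD, n = 6). Sirpa at 103 ± 9.26, Pirb at 99.3 ± 8.82 and Cd300lf at 98.3 ± 20.1 FPKM came next, and their ranges overlapped, so that these 3 could not be ordered. Pilra at 58.7 ± 10.2, Cd300lb at 54.9 ± 8.17 and Cd300ld at 46.9 ± 5.90 FPKM formed another overlapping run. It touched the run above, as the lowest Cd300lf value (72.6 FPKM) was under the highest Pilra value (73.3 FPKM). Within each of the 6 libraries Cd300lf was above Pilra. Pilrb1 at 30.6 ± 5.05 and Cd300a at 28.2 ± 2.69 FPKM were the lowest and overlapped each other. The ranges of Lilr4b and Lilrb4a, of Lilrb4a and Sirpa, and of Cd300ld and Pilrb1 did not overlap. Each member rested on at least 853 fragments in every library, up to 68246 for Lilr4b.

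**Figure D1:**
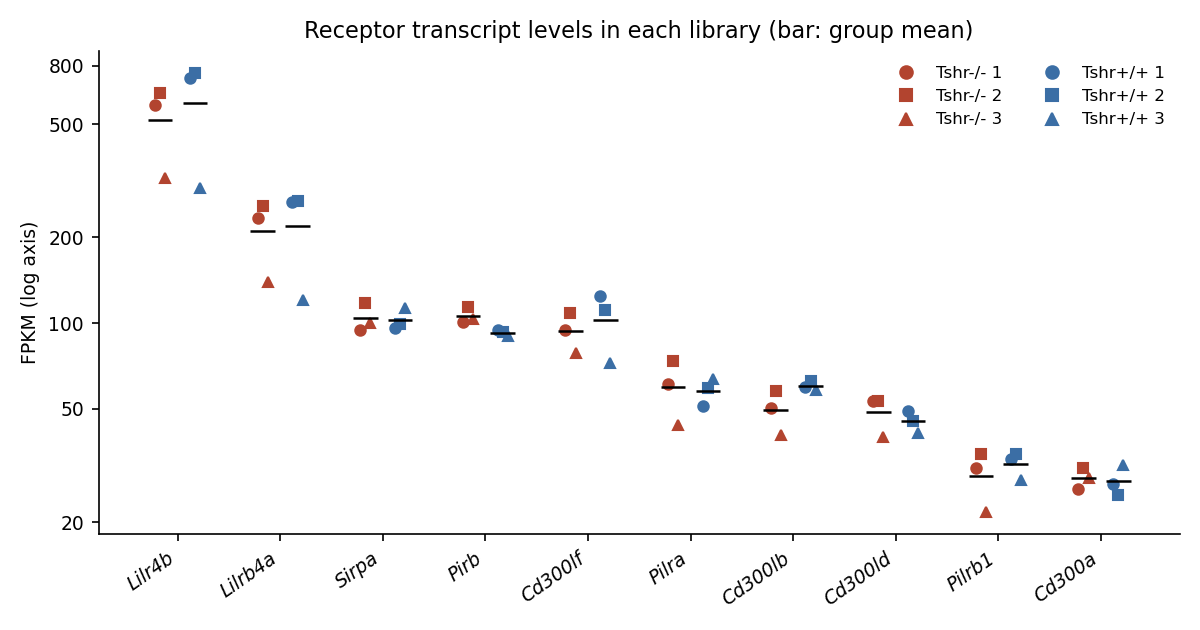
FPKM of the 10 receptor genes (log axis) in 3 Tshr-/- libraries, left of each pair, and 3 Tshr+/+ libraries, right; symbols mark the library number and bars the group means. Lilr4b and Lilrb4a stand above the rest, and both libraries numbered 3 hold their lowest values in either genotype.

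None of the 10 receptor genes differed between Tshr-/- and Tshr+/+ past the threshold. All 10 passed the filter of at least 1 FPKM in at least 3 libraries and were tested with limma among 10913 genes on the scale log2(FPKM + 1), on which fold changes are given. The call rate over all tested genes was also 0 (0% called at an adjusted p under 0.05). At an unadjusted p under 0.05 stood 2.90% of them (317 genes) and 0 of the 10 members. Voom on whole fragments, with another filter, likewise called 0 of 13709 genes. There 313 genes and 0 members had an unadjusted p under 0.05. The members split into 5 with a log2 fold change above 0 and 5 below, with a median of 0.0009 beside -0.01 over all tested genes. Each member had an adjusted p of 0.9997 in limma. The 95% intervals bound what this unpaired fit can show. That of Pirb ran from -0.05 to 0.43 and that of Sirpa from -0.29 to 0.31. That of Lilr4b ran from -1.15 to 0.86. With same-numbered libraries treated as pairs, the SE was 0.12 instead of 0.42 for Lilr4b, and 0.11 instead of 0.37 for Lilrb4a. Their log2 fold changes stayed at -0.14 and -0.01. The labels do not state such pairs.

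Pirb encodes PIR-B, an inhibitory receptor for MHC class I molecules. It held 101, 114 and 103 FPKM in Tshr-/- 1, 2 and 3, against 94.9, 93.0 and 89.8 FPKM in Tshr+/+ 1, 2 and 3. All 3 Tshr-/- values lay above all 3 Tshr+/+ values. The log2 fold change was 0.19 ± 0.10 (SE; unadjusted p = 0.10, limma adjusted p = 0.9997). Groups without overlap were found for 2 of the 10 members, beside 6.77% of all tested genes: 1 member was higher, beside 3.23% of genes, and 1 lower, beside 3.55%. Of the 50-base windows of Pirb transcripts in GENCODE, 34.0% were also found in transcripts of other genes, mainly Gm14548 and Pira2. At 100 bases the shared part was 20.7%. Fragments may therefore have been divided among these genes. Gm14548, also on chromosome 7 and named after its values were seen, held 26.5 ± 4.41 FPKM in the Tshr-/- libraries, against 19.9 ± 5.84 FPKM in the Tshr+/+ libraries (SD, n = 3 each).

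Cd300lb, whose product CLM-7 signals through DAP12, was the other member without overlap. It held 50.5, 57.9 and 40.4 FPKM in Tshr-/- 1, 2 and 3, against 59.8, 62.6 and 58.5 FPKM in Tshr+/+ 1, 2 and 3. Every Tshr-/- value was below every Tshr+/+ value, and the library labelled Tshr-/- 3 was the lowest. The log2 fold change was -0.29 ± 0.15 (SE; unadjusted p = 0.0871, limma adjusted p = 0.9997), with a 95% interval from -0.64 to 0.06. Without Tshr-/- 3 it was -0.15, and without both libraries numbered 3, an alternative chosen after seeing the data, it was -0.17. Without Tshr-/- 2 it was -0.41 (unadjusted p = 0.0231, limma adjusted p = 0.989), and without the libraries labelled Tshr-/- 1 and 2, also chosen after seeing the data, it was -0.57 (unadjusted p = 0.0128, limma adjusted p = 0.928). No 50-base window of Cd300lb transcripts was found in transcripts of another gene (0 windows). Both Pirb and Cd300lb kept their groups apart when the libraries were rescaled to equal totals or quantile normalized.

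The remaining inhibitory genes overlapped between the genotypes. Sirpa encodes the receptor of CD47, which restrains phagocytosis, and held 94.96, 117 and 99.7 FPKM in Tshr-/- 1, 2 and 3, against 96.2, 99.4 and 113 FPKM in Tshr+/+ 1, 2 and 3. Its highest values were those of Tshr-/- 2 and Tshr+/+ 3, and its spread over the 6 libraries was 8.96% of the mean. Cd300a, a receptor for phosphatidylserine and phosphatidylethanolamine, held 26.1, 30.9 and 28.5 FPKM in Tshr-/- 1, 2 and 3, against 27.2, 24.8 and 31.7 FPKM in Tshr+/+ 1, 2 and 3. The groups were interleaved, and the log2 fold change was 0.03 ± 0.13 (SE). Pilra, which binds O-glycosylated proteins, held 61.0, 73.3 and 44.0 FPKM in Tshr-/- 1, 2 and 3, against 51.1, 59.0 and 63.6 FPKM in Tshr+/+ 1, 2 and 3. Both the highest and the lowest Pilra value were in Tshr-/-, and the log2 fold change of 0.01 ± 0.20 (SE) turned to -0.15 without Tshr-/- 2. Cd300lf, the CLM-1 gene, held 94.6, 108 and 78.7 FPKM in Tshr-/- 1, 2 and 3, against 125, 111 and 72.6 FPKM in Tshr+/+ 1, 2 and 3. Its log2 fold change was -0.10 ± 0.23 (SE), and without Tshr+/+ 3 it was -0.33.

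Among the genes without an ITIM, Cd300ld and Pilrb1 also overlapped. Cd300ld encodes CLM-5, which signals through the Fc receptor gamma chain, and held 53.1, 53.3 and 39.7 FPKM in Tshr-/- 1, 2 and 3, against 49.2, 45.4 and 41.0 FPKM in Tshr+/+ 1, 2 and 3. Tshr-/- 1 and 2 were its highest libraries and Tshr-/- 3 its lowest, for a log2 fold change of 0.10 ± 0.15 (SE). Pilrb1, a DAP12-coupled partner of Pilra, held 31.0, 34.8 and 21.6 FPKM in Tshr-/- 1, 2 and 3, against 33.2, 34.6 and 28.1 FPKM in Tshr+/+ 1, 2 and 3. Its log2 fold change was -0.15 ± 0.19 (SE), and without Tshr-/- 3 it was 0.04. Of the 50-base windows of Pilrb1 transcripts, 30.1% were shared with other genes, mainly its neighbouring copy Pilrb2. At 100 bases the shared part was 3.53%. By kind, 4 of the 6 ITIM genes had a log2 fold change above 0 and 2 below, with a median of 0.01, and 1 of the 4 genes without an ITIM was above 0 and 3 were below, with a median of -0.15; these are counts of values that did not pass.

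**Figure D2:**
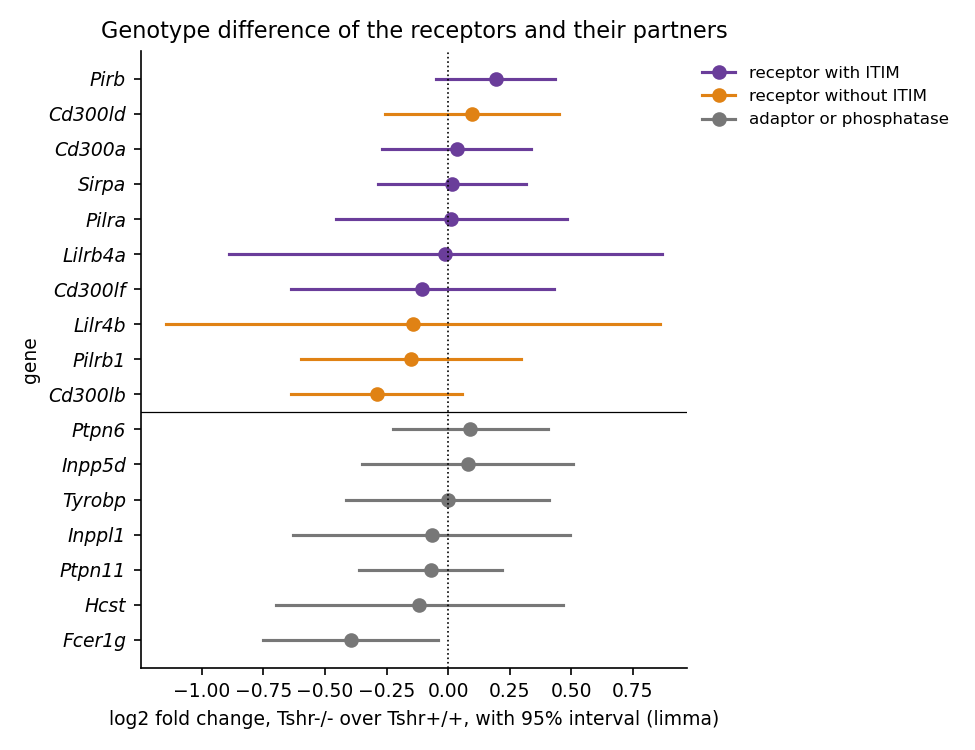
Log2 fold change of Tshr-/- over Tshr+/+ with its 95% interval from limma for the 10 receptor genes, coloured by the presence of an ITIM, and for 7 adaptor and phosphatase genes below the line. Every receptor interval spans 0, the widest being those of Lilr4b and Lilrb4a, and that of Fcer1g lies below 0 before adjustment over all genes.

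Lilr4b and Lilrb4a, the gp49 pair, were the most abundant members and also the most variable. Lilrb4a encodes the inhibitory gp49B and Lilr4b the gp49A receptor, whose tail lacks the motif. They lie in tandem on the plus strand of chromosome 10, Lilr4b from 51480632 to 51486703 and Lilrb4a from 51490956 to 51496611. Lilr4b held 582, 644 and 323 FPKM in Tshr-/- 1, 2 and 3, against 724, 757 and 297 FPKM in Tshr+/+ 1, 2 and 3. Lilrb4a held 234, 259 and 140 FPKM in Tshr-/- 1, 2 and 3, against 267, 269 and 121 FPKM in Tshr+/+ 1, 2 and 3. In both genes the libraries numbered 3 were far below the others in either genotype, and the genotypes overlapped. The log2 fold changes were -0.14 ± 0.42 (SE) for Lilr4b and -0.01 ± 0.37 (SE) for Lilrb4a. Without both libraries numbered 3, Lilr4b had -0.27 ± 0.12 (SE; limma adjusted p = 0.378) and Lilrb4a -0.12 ± 0.11 (SE; adjusted p = 0.654).

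The mean of the libraries numbered 3 was 0.458 times that of the other 4 for Lilr4b and 0.507 times for Lilrb4a. It was 0.690 times for Cd300lf, 0.745 times for Pilrb1 and 0.803 times for Cd300ld, and in these 5 members both libraries numbered 3 were the lowest, beside 19.7% of all tested genes. Both were the highest for 0 members, beside 17.0% of all tested genes. The other members had ratios from 0.857 for Cd300lb to 1.10 for Cd300a. The sum of FPKM over all genes was also lowest in these libraries, at 348454 in Tshr-/- 3 and 395049 in Tshr+/+ 3, and the pattern depended on scaling. With libraries rescaled to equal totals, both libraries numbered 3 were lowest for 3 members, Lilr4b, Lilrb4a and Pilrb1, and with quantile normalization for 4, these and Cd300lf; the ratio of Lilr4b was then 0.544 and 0.541. The summed level of the neutrophil markers was 94301 to 116544 FPKM in the libraries numbered 3, against 123049 to 144734 FPKM in the other 4, and 3 of 12 had both libraries numbered 3 lowest, beside the 19.7% of all tested genes. As a share of all FPKM the sum was 27.1% in Tshr-/- 3 and 29.5% in Tshr+/+ 3, against 29.2% to 32.1% in the other 4, so the separation was not kept on that scale. The sum of monocyte markers was 598 to 652 FPKM in the libraries numbered 3, against 553 to 679 FPKM in the other 4. The part of these markers in the receptor levels was not tested, and in bulk RNA fewer cells of a type cannot be told apart from less RNA per cell. The labels do not say what a shared number stands for.

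**Figure D3:**
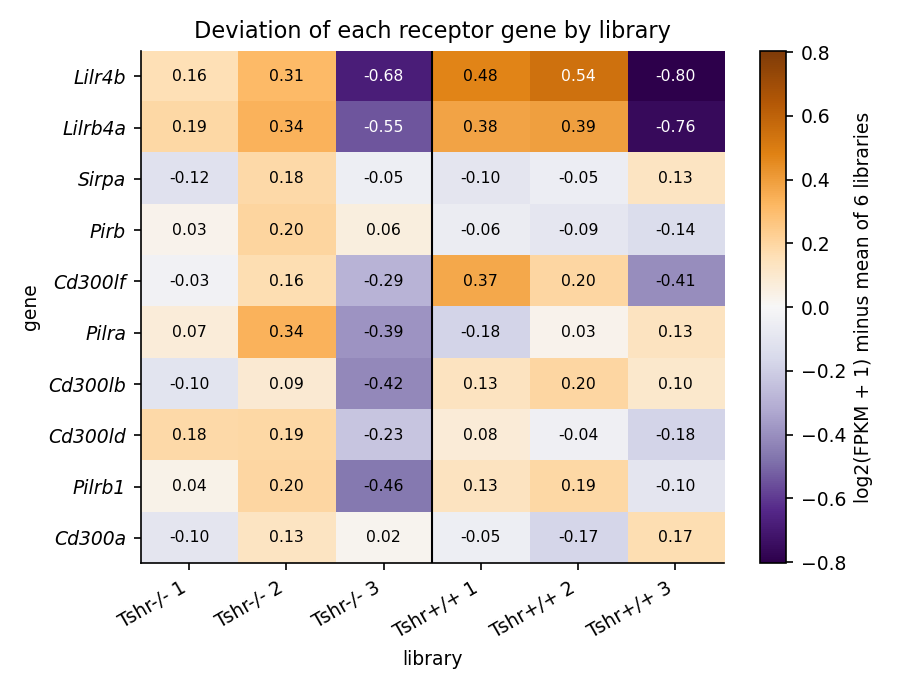
Deviation of each receptor gene from its own mean over 6 libraries, in log2(FPKM + 1), with Tshr-/- libraries left of the line and Tshr+/+ libraries right. Lilr4b and Lilrb4a lie between -0.80 and -0.55 in both libraries numbered 3, while Sirpa, Pirb and Cd300a deviate by at most 0.20 in any library.

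Counting could have mixed the gp49 genes. Of the 50-base windows of Lilrb4a transcripts, 46.7% were shared with other genes, 33.7% with Gm49339 and 26.1% with Lilr4b. Of those of Lilr4b, 24.1% were shared with Lilrb4a. With windows of 100 bases the share of Lilrb4a was 9.67% with Lilr4b and 31.0% with Gm49339. Gm49339, an annotated gene that overlaps both on the same strand, was listed with at most 6 fragments in a library. Genes on the opposite strand overlap Lilrb4a (Gm40645), Pilra (Zcwpw1), Pilrb1 (Gm36551), Cd300lb (Gm11699) and Cd300lf (Rab37), and whether the counting used strand is not stated. The ratio of Lilr4b to Lilrb4a was 2.48, 2.49 and 2.31 in Tshr-/- 1, 2 and 3, against 2.72, 2.81 and 2.46 in Tshr+/+ 1, 2 and 3. The ratio thus varied far less than the level of either gene, and Tshr+/+ 3 lay among the Tshr-/- values.

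The balance between activating-type and inhibitory partners was compared in 6 pairs as a log2 ratio of FPKM + 1 in each library. Whether Lilr4b, placed among the activating-type genes, is activating was not tested. No difference passed an exact two-sided permutation test, which cannot give a p below 0.1 with 3 libraries a group, and the groups overlapped in all 6 pairs on this scale. Between same-numbered libraries the differences had 1 sign in 3 pairs, which gives the smallest p that an exact sign-flip test of 3 differences allows (0.25). These, with numbers 1, 2 and 3 in order, were -0.18, -0.41 and -0.38 for Cd300lb over Cd300a, 0.28, 0.18 and 0.28 for the Sirpb1 genes over Sirpa, and -0.13, -0.18 and -0.09 for Lilr4b over Lilrb4a. Cd300lb over Cd300a averaged 0.77 ± 0.24 in Tshr-/- and 1.09 ± 0.22 in Tshr+/+ (SD, n = 3 each), a difference of -0.32 (exact p = 0.3, adjusted over the 6 pairs 0.48). Sirpb1a, Sirpb1b and Sirpb1c, activating relatives of Sirpa that pair with DAP12, summed over Sirpa, averaged -1.92 ± 0.15 in Tshr-/- and -2.17 ± 0.10 in Tshr+/+ (SD, n = 3 each), a difference of 0.25 (exact p = 0.2, adjusted 0.48). With a pseudocount of 0.1 its groups did not overlap, all Tshr-/- values being higher (difference 0.26, exact p = 0.1, the smallest possible). Cd300ld over Cd300lf differed by 0.20 and Pilrb1 over Pilra by -0.16 (exact p = 0.4 each). The PILR ratio leaves out the neighbouring copy Pilrb2. Over the 6 libraries Pilrb2 had a mean of 41.6 FPKM, beside 30.6 FPKM for Pilrb1 and 58.7 FPKM for Pilra. A ratio with both copies summed was not tested. Lilr4b over Lilrb4a differed by -0.13 (exact p = 0.3). Pira2, the 1 activating PIR-A gene matched by name, over Pirb differed by -0.05 (exact p = 0.8). This value turned to 0.10 without Tshr-/- 3 and to 0.04 without Tshr+/+ 2. It leaves out Lilra6, an activating-type gene of the same cluster, with a mean of 17.4 FPKM over the 6 libraries beside 8.74 FPKM for Pira2. Gm14548, the gene sharing the most 50-base windows with Pirb, is also left out. Its mean was 23.2 FPKM and its log2 fold change 0.42 ± 0.24 (SE), and whether it is activating was not tested. A ratio with Lilra6 or Gm14548 added was not tested, so the value describes Pira2 alone.

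**Figure D4:**
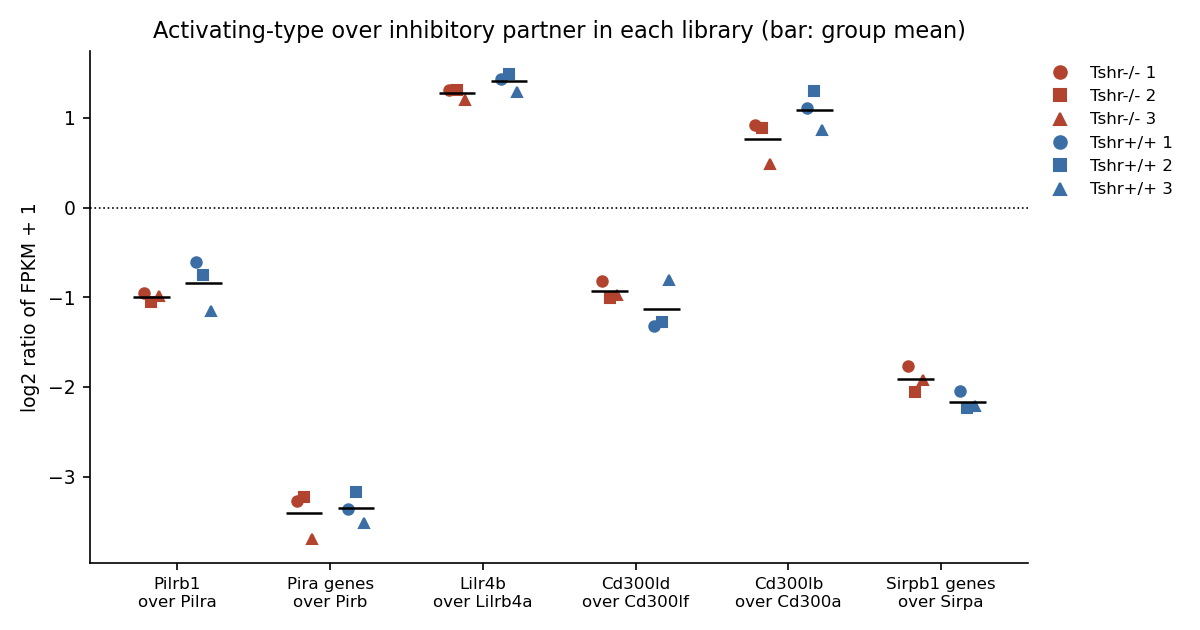
Log2 ratio of FPKM + 1 of the activating-type gene over its inhibitory partner in each library for 6 pairs, Tshr-/- left and Tshr+/+ right, with bars at the group means. Lilr4b over Lilrb4a and Cd300lb over Cd300a lie above 0 and the other 4 pairs below it, and the genotypes overlap in each pair on this scale. The PILR ratio holds Pilrb1 without Pilrb2, and the PIR ratio holds Pira2 without Lilra6 or Gm14548.

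Relatives outside the 10 genes did not pass either. Of 26 relatives listed by name, 15 were matched in the table and 9 tested; 5 had a log2 fold change above 0 and 4 below, with a median of 0.14 beside -0.01 over all tested genes. Lilra6, another activating-type gene of the PIR cluster, held 18.8, 21.4 and 18.04 FPKM in Tshr-/- 1, 2 and 3, against 14.0, 13.2 and 18.7 FPKM in Tshr+/+ 1, 2 and 3. The groups overlapped through Tshr+/+ 3 alone (log2 fold change 0.33 ± 0.15, SE). For Sirpb1c the log2 fold change was 0.43 (SE 0.195). The most abundant relative was Cd300c2, at 41.8 ± 13.8 FPKM in the Tshr-/- libraries, against 42.8 ± 5.10 FPKM in the Tshr+/+ libraries (SD, n = 3 each). Pilrb2, the copy next to Pilrb1, held 42.7, 50.8 and 29.0 FPKM in Tshr-/- 1, 2 and 3, against 40.6, 46.1 and 40.4 FPKM in Tshr+/+ 1, 2 and 3. The other tested relatives, Sirpb1b, Pira2, Sirpb1a, Cd300lg and Cd300e, held between 1.57 and 18.5 FPKM.

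Of the adaptors and kinases next to the receptors, 12 of 13 were tested, and 0 passed in either direction, with 6 above 0, 6 below and a median log2 fold change of 0.01. Fcer1g, the gamma chain through which CLM-5 and PIR-A receptors signal, held 504, 567 and 477 FPKM in Tshr-/- 1, 2 and 3, against 672, 783 and 589 FPKM in Tshr+/+ 1, 2 and 3. All Tshr-/- values lay below all Tshr+/+ values, for a log2 fold change of -0.40 ± 0.15 (SE; unadjusted p = 0.0343, limma adjusted p = 0.9997). Vav1, an exchange factor gene, held 70.5, 76.2 and 70.8 FPKM in Tshr-/- 1, 2 and 3, against 66.3, 67.2 and 70.5 FPKM in Tshr+/+ 1, 2 and 3, with a log2 fold change of 0.09. Its groups did not overlap either, as was the case for 6.77% of all tested genes. They nearly touched, the lowest Tshr-/- value being 70.51 FPKM and the highest Tshr+/+ value 70.47 FPKM (limma unadjusted p = 0.375). Tyrobp, the DAP12 gene, was the most abundant at 1271 ± 228 FPKM in the Tshr-/- libraries, against 1259 ± 95.9 FPKM in the Tshr+/+ libraries (SD, n = 3 each). For Lcp2, a scaffold of immunoreceptor signalling, it was 0.21 ± 0.13 (SE).

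The 4 phosphatase genes that act behind ITIMs were all tested and 0 passed, 2 being above 0 and 2 below, with a median of 0.01. Ptpn6 (SHP-1) held 163, 188 and 152 FPKM in Tshr-/- 1, 2 and 3, against 146, 150 and 176 FPKM in Tshr+/+ 1, 2 and 3. Ptpn11 (SHP-2) was lower in abundance, at 13.2 ± 1.73 FPKM in the Tshr-/- libraries, against 13.8 ± 0.871 FPKM in the Tshr+/+ libraries (SD, n = 3 each). Of 12 ligand genes 7 were tested and 0 passed, 6 being above 0 and 1 below, with a median of 0.08. B2m, the light chain of the MHC class I ligands of PIR-B, held 1307 ± 291 FPKM in the Tshr-/- libraries, against 1228 ± 116 FPKM in the Tshr+/+ libraries (SD, n = 3 each). Itgb3 and Itgav, integrin chains of the gp49B ligand, had log2 fold changes of 0.19 ± 0.15 and 0.08 ± 0.11 (SE). The PILR ligand genes Pianp and Npdc1 did not pass the filter.

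Of 23 other inhibitory receptor genes 16 were tested, and 0 passed. Of these 13 had a log2 fold change above 0 and 3 below, with a median of 0.09, where 47.1% of all tested genes were above 0. Ceacam1, an ITIM-bearing adhesion receptor, held 61.4, 60.3 and 59.8 FPKM in Tshr-/- 1, 2 and 3, against 55.8, 55.8 and 54.3 FPKM in Tshr+/+ 1, 2 and 3. It was the 1 tested gene of these 16 whose groups did not overlap, with a log2 fold change of 0.13 ± 0.09 (SE; unadjusted p = 0.201). Vsir, the gene of the checkpoint receptor VISTA, was the most abundant at 201 ± 19.6 FPKM in the Tshr-/- libraries, against 193 ± 25.4 FPKM in the Tshr+/+ libraries (SD, n = 3 each). The sialic acid receptor gene Siglecg stood at a log2 fold change of 0.18 ± 0.16 (SE).

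The mean profile of the 10 members over the libraries was compared with 6089 other tested genes with a mean of at least 5 FPKM. The 5 with the highest Pearson correlation over the 6 libraries were Sh2d3c (r = 0.996), Adipor1 (0.994), Btg1 (0.993), Rtf2 (0.992) and Rnf11 (0.991), all low in both libraries numbered 3. Sh2d3c held 91.7, 124 and 58.9 FPKM in Tshr-/- 1, 2 and 3, against 108, 103 and 65.7 FPKM in Tshr+/+ 1, 2 and 3. These correlations describe a split between the libraries numbered 3 and the other 4 and carry no test.

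Promoter windows of 300 bases, from 250 before to 50 after the start of transcription, were matched in RefSeq for 8 of the 10 genes (GRCm38.p6). The letters GAGGAAGT, a recognition core of the myeloid transcription factor PU.1, were searched on both strands. They were found in 3 of the 8 windows, those of Pirb, Cd300ld and Cd300lf, and in 3.20% of 32851 windows of all genes. Cd300lf and Cd300ld are shown because they are an inhibitory and an activating-type gene of 1 cluster whose values were lowest in both libraries numbered 3 as deposited; capitals mark the match. The Cd300lf window lies at chr11:115133943-115134242 and that of Cd300ld at chr11:114989837-114990136, both on the minus strand.
Cd300lf: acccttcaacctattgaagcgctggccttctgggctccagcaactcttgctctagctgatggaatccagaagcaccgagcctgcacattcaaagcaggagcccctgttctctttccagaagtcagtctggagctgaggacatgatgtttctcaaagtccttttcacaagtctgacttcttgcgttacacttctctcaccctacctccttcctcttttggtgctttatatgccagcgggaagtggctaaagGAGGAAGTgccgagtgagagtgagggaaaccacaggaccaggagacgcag
Cd300ld: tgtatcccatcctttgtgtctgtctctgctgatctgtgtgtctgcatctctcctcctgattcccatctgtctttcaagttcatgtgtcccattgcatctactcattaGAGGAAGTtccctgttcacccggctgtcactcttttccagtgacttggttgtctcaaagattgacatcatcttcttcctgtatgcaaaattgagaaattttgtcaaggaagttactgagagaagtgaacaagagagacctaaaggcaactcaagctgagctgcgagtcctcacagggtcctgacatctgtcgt
A match is a description of these letters and not of binding.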

How the data were processed

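Libraries of CD11b-positive marrow cells were compared. The deposited table gives FPKM for each gene and library, computed by the authors. Per the submitters' processing notes the genome was GRCm38 (mm10); the aligner, the counter and any use of strand are not named in the sources used here. The columns are headed WT and HO; HO was read as homozygous Tshr-/-. Positions of the 10 genes equalled those of GENCODE M21. Multiplied by gene length and divided by a constant for each library, 100% of values were whole within 0.01, and these are the fragment numbers given.

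FPKM were used as deposited on the scale log2(FPKM + 1); genes reaching 1 FPKM in 3 or more libraries were tested with limma 3.58.1 in R 4.3.3 (variance trend, two-sided, Benjamini-Hochberg, threshold 0.05), tested on simulated data. The members, lists and rules were chosen with earlier results of these data known. All members were named, and from each list the genes past the threshold or, if none, the pair with the lowest p, plus the gene of highest mean; relatives able to share fragments were also named, and list genes whose groups did not overlap were named after their values were seen. A single gene of the adaptor and kinase list is not reported here. Same-numbered libraries of both genotypes deviated together (correlations of deviations 0.243, 0.262 and 0.468 for numbers 1, 2 and 3), although Tshr-/- 1 and Tshr+/+ 2 gave 0.344, so the likeness is not particular to numbers 1 and 2; all being above 0.1, the numbers were treated as pairs in an alternative; the titles say nothing of shared litters or days. In that alternative the block changed no call. Cd300lb then had an unadjusted limma p of 0.0479 (adjusted 0.830). With the block 651 genes had an unadjusted p under 0.05, beside 317 without it.

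Alternatives included pseudocount 0.1, other filters, 2 other scalings, robust moderation, array weights, voom (at least 10 fragments in at least 3 libraries) and leaving out libraries. In a gene of 1 kb, 1 fragment was worth 0.0496 to 0.0713 FPKM.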

Additional observations from a re-analysis of the deposited data

How the results depend on the processing

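No receptor gene was called under any of the 17 alternatives. The smallest limma adjusted p was 0.129, for Cd300lb with array weights. Its unadjusted p was 0.0131 there, where 2555 of 10913 genes had an unadjusted p under 0.05. With quantile normalization Pirb had an unadjusted limma p of 0.0397, and 316 genes were under 0.05. Of 170 single values, 24 changed sign, none of them called. Pirb and Cd300lb never did, in 17 alternatives each. The other FPKM filters, robust moderation and the replicate block leave each log2 fold change as it is. Those alternatives therefore could not change a sign, and say nothing of its stability. Over all genes, array weights called 24 and leaving out both libraries numbered 3, chosen after seeing the data, called 24; leaving out single libraries gave 0 to 2, the 2 without Tshr-/- 3. The cause was not tested. The replicate block, which pairs same-numbered libraries, called 0 genes and 0 members. In this balanced layout a block cannot change a log2 fold change, so the members' median of 0.0009 was bound to stay. That median was -0.17 to 0.10 without single libraries and -0.36 without the libraries labelled Tshr-/- 1 and 2, which leaves 1 library of that label, assumed to vary like the others; Pilra then had -0.38, Cd300ld -0.18 and Sirpa -0.039, and Lilr4b -0.76, Cd300lb -0.57, Lilrb4a -0.55 and Pilrb1 -0.54, of which Cd300lb and Pilrb1 had an unadjusted p under 0.05 (0.0128 and 0.0369; adjusted 0.928 each).

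Lilrb4a was 0.040 with equal totals, 0.042 with quantile normalization and 0.023 with voom, and Sirpa -0.022 with array weights. Without single libraries the log2 fold change ran from -0.39 to 0.26 for Lilrb4a, -0.58 to 0.16 for Lilr4b, -0.15 to 0.21 for Pilra, -0.29 to 0.043 for Pilrb1, -0.044 to 0.13 for Cd300a, -0.33 to 0.053 for Cd300lf and -0.074 to 0.082 for Sirpa. Pira2 over Pirb ran from -0.14 to 0.10, and was 0.016 without both libraries numbered 3; the other 5 ratios kept their direction in the same 9 alternatives. The replicate block for ratios, added after seeing the data, gave exact p of 0.25 to 0.75.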
